A study of Mus musculus with 16 samples.

Results

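The 8 genes described here are Cd74, H2-Aa, H2-Ab1 and H2-Eb1, of MHC class II antigen presentation, and Cd79a, Cd3e, Lck and Ptprc, which mark lymphocytes or leukocytes. They were chosen by name, and all 8 were found by symbol among the 24091 genes of both count tables. The genes were read in 16 mouse mRNA libraries from a study of trefoil factor 2, a small secreted peptide encoded by Tff2. Whole pancreata at embryonic day 16.5 (E16.5) came from 3 control embryos, Tff2fl/fl, and 3 conditional knockout (KO) embryos, Pdx1:Cre;Tff2fl/fl. Hand-picked islets came from male mice aged 60 weeks, 5 Tff2fl/fl controls and 5 Pdx1:Cre;Tff2fl/fl KO animals. All groups thus carry both floxed Tff2 alleles, and the controls carry no Cre. Pdx1 is a gene of the pancreatic epithelium, and which cells the Cre acted in was not tested. The spleen was cut away from the fetal pancreas during dissection, per the labels' protocols. Each library carried 1 animal number, litters are not given in the labels, and p-values measure the spread between these libraries.

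MHC class II molecules are pairs of an alpha and a beta chain that display peptides from engulfed proteins to CD4 T cells. H2-Aa and H2-Ab1 encode the alpha and beta chains of the mouse I-A molecule, H2-Eb1 encodes the beta chain of I-E, and Cd74 encodes the invariant chain that blocks the peptide groove and escorts new class II molecules through the cell. Dendritic cells, B cells and activated macrophages are the cells best known for this display, and their class II genes are switched on by the coactivator Ciita. Ptprc encodes CD45, a phosphatase on the surface of leukocytes. Lck is a kinase bound to CD4 and CD8 in T cells, Cd3e is a signalling chain of the T cell receptor, and Cd79a is a signalling chain of the B cell receptor.

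Class II promoters are known for a shared upstream module of an X box, bound by RFX factors, followed by a Y box, bound by NF-Y, on which Ciita assembles. RefSeq promoter windows (build GRCm38.p6) were matched for 6 of the 8 genes. The stretches below are 70 bases of the H2-Aa and H2-Eb1 windows, taken around the Y box letters, 5′ to 3′ on the gene's strand, with matches to the letters searched in capitals. They are shown as the windows of class II genes among those matched. A link of these letters to the levels that follow was not tested. The H2-Aa stretch lies at chr17:34287855-34287924 (minus strand) and the H2-Eb1 stretch at chr17:34305755-34305824 (plus strand).
H2-Aa: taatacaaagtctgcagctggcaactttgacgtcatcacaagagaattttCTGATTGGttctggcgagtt
H2-Eb1: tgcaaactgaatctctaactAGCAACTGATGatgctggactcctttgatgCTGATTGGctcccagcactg
The letters CTGATTGG, a Y box with its flank, begin 51 bases before the annotated start of H2-Aa and 62 bases before that of H2-Eb1. An X box core, spelled as the first run of capitals in H2-Eb1 with the third and the seventh letters free, was found in the H2-Eb1 window and not in that of H2-Aa. Searched on both strands of all 32851 promoter windows, the Y box letters stood in 1346 (4.1%) and the X box letters in 98 (0.298%), and the motifs do not overlap each other here. No window of Cd79a, Cd3e, Lck or Ptprc held either. These 2 spellings were kept of 6 searched, after their matches had been seen. The shorter Y box spellings GATTGG and ATTGG were found in the same 2 genes but stood in 16.1% and 37.4% of all windows, an X box core with 1 more free letter stood in 0.968%, and a longer X box spelling matched no window of the 8 genes. A match is a description of sequence and not a measured binding site. A missing match does not show that a gene has no X box.

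By the coordinates of the deposited tables (mm10), Cd74 lies on chromosome 18 from 60803849 to 60812652 (plus strand). On chromosome 17, H2-Aa runs from 34282751 to 34287771 (minus), and H2-Ab1 from 34263227 to 34269418 (plus). Ptprc is on chromosome 1 from 138062859 to 138175305 (minus), Lck on chromosome 4 from 129548344 to 129573641 (minus), Cd3e on chromosome 9 from 44998743 to 45009590 (minus) and Cd79a on chromosome 7 from 24897511 to 24902197 (plus). For H2-Eb1 the tables give 34264832 to 34316674 on chromosome 17 (plus), a span that encloses H2-Aa and overlaps H2-Ab1, while GENCODE M21 places the gene from 34305867 to 34316674. By the deposited coordinates Notch4 also overlaps H2-Aa, H2-Ab1 and H2-Eb1, and Eno1b overlaps Lck. In GENCODE M21, which may differ from the unnamed annotation used for counting, no exon of another gene overlaps those of H2-Aa, H2-Ab1 or H2-Eb1. Their transcripts there share no stretch of 50 bases with each other or with the other class II genes. Exons of Cd3e are overlapped by the antisense gene Gm48719, those of Cd74 by Mir5107 and those of Lck by Mir8119. The sources used here do not say whether counting used strand, so reads of Cd3e and Gm48719 cannot be told apart. H2-Ea-ps, the pseudogene of the alpha chain that pairs with H2-Eb1, had 0 reads in all 16 libraries, and 0 reads allow at most 3 reads per library.

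Library totals were 14866194 to 22699934 reads in pancreata and 22595400 to 32385042 in islets. Levels are read counts divided by library size (CPM), scaled by the trimmed mean of M values (TMM) within each tissue. Tff2, the targeted gene, was 32.2 ± 8.38 CPM (SD, n = 3) in control and 4.75 ± 4.54 CPM (SD, n = 3) in KO pancreata, a log2 change of -2.80 with an edgeR adjusted p of 0.0297. Without control 02, 08 or 13 that p was 0.15, 0.108 or 0.0837. KO 18 kept 9.96 CPM against 2.70 and 1.60 CPM in KO 01 and 19, and without KO 18 the log2 change was -3.89. In islets the controls had 2.44 ± 1.52 CPM and the KO animals 0.277 ± 0.221 CPM (SD, n = 5 each), and the log2 change of -3.07 missed the threshold (edgeR adjusted p = 0.0884, DESeq2 adjusted p = 0.0101). Reads of the Y-linked gene Ddx3y numbered 1982 in KO pancreas 18 and 0 to 3 in the other 5 pancreata, so KO 18 was the only pancreas with Y-linked expression. KO pancreas 01 stood apart in liver genes, with a summed level of 1602 CPM over 8 of them against 312 to 531 CPM in the other 5.

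The first comparison concerned KO against control pancreata at E16.5. None of the 8 genes passed the threshold of 0.05 on the adjusted p of edgeR's quasi-likelihood test, which called 6.43% of 14914 genes in either direction. At an unadjusted p under 0.05 it held 4 of the 8, against 25.4% of all genes, and DESeq2 called 2, Cd74 and Ptprc, against 8.01% of all genes. With library totals in place of TMM 2 passed (6.42% of all genes), and with no filter on low counts 1 passed, Ptprc (5.53%). Calls at E16.5 leaned on all 3 controls, since without control 02, 08 or 13 edgeR called 0, 4 or 0 genes in all, so no list gene named as changed was called without control 02 or 13. The fitted fold change was above 0 for 7 of the 8 genes, with a median of 0.48 on the log2 scale, against 49.8% of all genes and a median of -0.0012. Every KO library lay above every control library for 3 of the 8, Cd74, H2-Eb1 and Ptprc, against 15% of all genes tested.

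Cd74 had 13.0, 8.85 and 11.04 CPM in controls 02, 08 and 13, and 14.8, 16.7 and 16.3 CPM in KO 01, 18 and 19. All KO pancreata were above all controls, and the 3 KO values lay closer together than those of the controls. Means were 10.97 ± 2.08 CPM (SD, n = 3) and 15.97 ± 1.00 CPM (SD, n = 3), a log2 change of 0.54 (SE 0.146) with an edgeR adjusted p of 0.0667. The call depended on the tool, since the adjusted p was 0.0293 with DESeq2 and 0.0222 when all 16 libraries shared 1 edgeR model, which called 2 of the 8 genes, Cd74 and H2-Eb1, and 13.1% of all genes.

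H2-Aa, the I-A alpha chain, had 6.07, 4.87 and 4.31 CPM in the controls and 5.93, 6.91 and 7.79 CPM in the KO pancreata, in the same order of animals. The groups overlapped, because control 02 exceeded KO 01. The log2 change was 0.43 (SE 0.179) with an edgeR adjusted p of 0.181. H2-Ab1, the I-A beta chain, had 3.42, 2.07 and 2.53 CPM in controls and 3.55, 3.32 and 3.39 CPM in KO pancreata. Control 02 was the high control again and exceeded 2 of the KO values. Its log2 change was 0.35 (SE 0.219, edgeR adjusted p = 0.359). H2-Eb1, the I-E beta chain, had 4.11, 2.86 and 3.16 CPM in controls and 4.77, 6.37 and 4.87 CPM in KO pancreata, with no overlap. Its log2 change was 0.65, with SE 0.204 and an adjusted p of 0.094 in edgeR, and 0.0287 in the model over 16 libraries.

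Summed over these 4 genes, class II expression was 18.7 to 26.6 CPM in control and 29.1 to 33.3 CPM in KO pancreata. The summed ranges did not overlap. The counts behind single values were low, 37 to 285 reads per control library.

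Ptprc had 15.8, 14.7 and 17.4 CPM in controls and 19.2, 30.5 and 25.9 CPM in KO pancreata. The groups did not overlap, and KO 18 was highest and KO 01 nearest to the controls. The log2 change was 0.65 (SE 0.164) with an edgeR adjusted p of 0.0557, and the adjusted p was 0.00565 with DESeq2 and 0.0331 with limma-voom, which called Ptprc alone of the 8 and 7.91% of all genes. Without KO 01 the edgeR adjusted p was 0.00527 and the log2 change 0.82, with 6.88% of all genes called. Without KO 18, the library with Y-linked reads, they were 0.0903 and 0.49.

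The lymphocyte receptor genes showed no shared direction at E16.5. Cd3e had 10.4, 10.8 and 6.33 CPM in controls and 7.47, 9.42 and 8.20 CPM in KO pancreata, all KO values lying inside the control range. Its log2 change was -0.14 (SE 0.208, edgeR adjusted p = 0.719). Lck had 4.29, 3.53 and 3.85 CPM in controls and 4.61, 4.61 and 4.04 CPM in KO pancreata, with an overlap at KO 19. Its log2 change was 0.18 (SE 0.160, edgeR adjusted p = 0.513). Cd79a rested on few reads, 2, 12 and 2 in controls and 11, 12 and 18 in KO pancreata. Control 08 overlapped with the KO values in CPM. The log2 change was 1.51, with SE 0.659 and an adjusted p of 0.2 in edgeR. It was 2.92 without control 08 and 1.03 without control 02, with no call in either case.

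**Figure D1:**
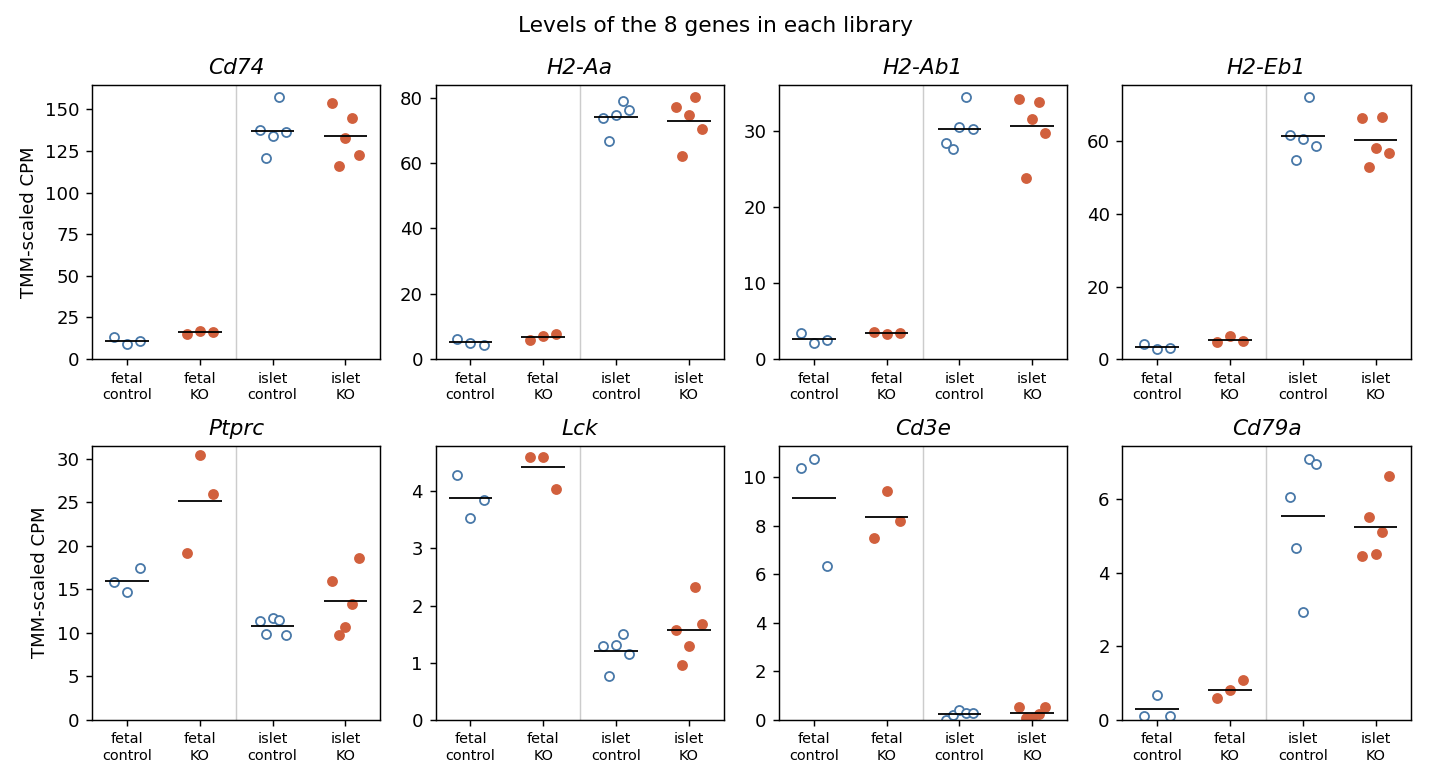
TMM-scaled CPM of each of the 8 genes in the 16 libraries, 1 panel per gene with its own axis from 0. Open points are controls, filled points KO libraries and bars group means, with fetal pancreas on the left and islets on the right of each panel. CPM are scaled within each tissue. The 4 class II genes sit far higher in islets than in fetal pancreas, and Cd3e sits far lower. For Ptprc the tissues overlap through KO islets, while control islets (9.78 to 11.7 CPM) lie below control pancreata (14.7 to 17.4 CPM).

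Other genes of the class II pathway were read from a list of 14, of which 10 could be tested at E16.5. Of all 14914 genes tested there, edgeR called 560 higher and 399 lower, 6.43% in either direction. Of the 10 listed genes 1 rose, March1, a ubiquitin ligase that removes class II molecules from the cell surface. It was 5.54 ± 0.575 CPM (SD, n = 3) in control and 9.57 ± 1.71 CPM (SD, n = 3) in KO pancreata (log2 change 0.78, edgeR adjusted p = 0.0381). None of the 10 fell, and 7 had a fold change above 0, with a median of 0.24. H2-DMa, which helps load peptides, had a log2 change of 0.21 (edgeR adjusted p = 0.57). Of 8 genes of class II transcription none passed, and their median was -0.0046. Ciita averaged 0.572 ± 0.0972 CPM in the controls against 0.881 ± 0.338 CPM in the KO pancreata (SD, n = 3 each), with a log2 change of 0.60 and an adjusted p of 0.344 in edgeR. Creb1 and Nfya, the most abundant of the 8, had log2 changes of 0.07 and 0.04.

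Class I presentation and interferon gamma, the best known inducer of class II genes, were followed by lists as well. None of 8 class I genes tested passed, with 4 above 0 and a median of -0.01. B2m, the light chain of class I, had a log2 change of 0.31 and the heavy chain H2-K1 one of -0.42, with edgeR adjusted p of 0.204 and 0.0816. None of 10 interferon gamma response genes passed, 9 of 10 were above 0, and the median was 0.21. Their most abundant members, the receptor chains Ifngr2 and Ifngr1, had log2 changes of 0.11 and 0.08.

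General leukocyte genes also had higher fitted values in KO pancreata. All 14 of a pan-leukocyte list had a fold change above 0, against 49.8% of all genes, with a median of 0.62. Of the 14, 2 rose, Coro1a, an actin regulator, and Ikzf1, a lymphoid transcription factor, where 560 of all 14914 genes rose. Coro1a was 16.8 ± 2.84 CPM (SD, n = 3) in control and 27.1 ± 4.88 CPM (SD, n = 3) in KO pancreata (edgeR adjusted p = 0.0477), and Ikzf1 was 9.60 ± 2.06 and 17.9 ± 1.87 CPM (SD, n = 3 each, edgeR adjusted p = 0.0287). The summed level of the 14 was 162, 118 and 169 CPM in controls and 170, 243 and 227 CPM in KO pancreata, with KO 01 close to the highest controls. In bulk tissue a change in the number of cells of a type and a change in RNA per cell cannot be told apart.

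Scaling to these leukocyte genes shifts each library as a whole, so it lowered the log2 changes of all genes together. Whether leukocyte number accounts for the class II values was not tested. With libraries scaled to the summed pan-leukocyte counts, an alternative chosen after seeing the data, the log2 change was 0.05 for Cd74, -0.09 for H2-Aa, -0.12 for H2-Ab1 and 0.15 for H2-Eb1, while the median of all genes was -0.51. On that scale Ptprc was at 0.12 and Lck at -0.31. The ratio of Cd74 to Ptprc per kb of gene length was 2.98 to 4.08 in control and 2.73 to 3.84 in KO pancreata, overlapping ranges. That of Cd74 to Csf1r, a macrophage gene, was 0.472 to 0.659 in controls and 0.962, 0.446 and 0.830 in KO 01, 18 and 19. Epithelial genes fell in KO pancreata, 10 of 15 on a pan-epithelial list against 399 of all 14914 genes, with a median of -0.46. With libraries scaled to those 15 genes, 7 of the 8 genes passed, all but Cd3e, and the median of all genes was 0.40, with 65.1% of all genes called.

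Beside the calls in the lists that follow, edgeR called 560 of all 14914 genes higher and 399 lower, 6.43% in either direction. By cell type, 6 of 6 neutrophil genes tested had a fold change above 0, and 1 of them, Camp, rose from 0.401 ± 0.0521 to 2.62 ± 1.38 CPM (SD, n = 3 each, edgeR adjusted p = 0.025). The summed level of the 7 neutrophil genes listed, with Elane, which was not tested, was 21.5 to 38.7 CPM in controls. It was 79.0, 43.2 and 194 CPM in KO 01, 18 and 19. Of 12 macrophage genes 1 rose, Lyz2, which encodes lysozyme (54.6 ± 7.20 to 106 ± 32.6 CPM, SD, n = 3 each, edgeR adjusted p = 0.0461), and 11 were above 0. The summed macrophage level was 497 to 610 CPM in controls and 481, 888 and 599 CPM in KO 01, 18 and 19. Only KO 18 lay above the controls. None of 5 dendritic cell, 4 B cell, 7 T cell and 3 natural killer or innate lymphoid genes tested passed. Spleen genes summed to 74.0 to 79.1 CPM in controls and 84.8, 70.9 and 148 CPM in KO 01, 18 and 19. Of 10 endothelial genes 2 fell, Flt1 and Eng. Of 7 islet hormone and secretory genes 6 fell, with a median of -1.14. Of 7 acinar genes 1 fell, Ptf1a, all 7 were below 0 and the median was -0.53. None of 6 erythroid genes passed, all 6 were above 0 and the median was 0.73. The part of these cell types, of spleen or of liver in the values of the 8 genes was not tested.

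**Figure D2:**
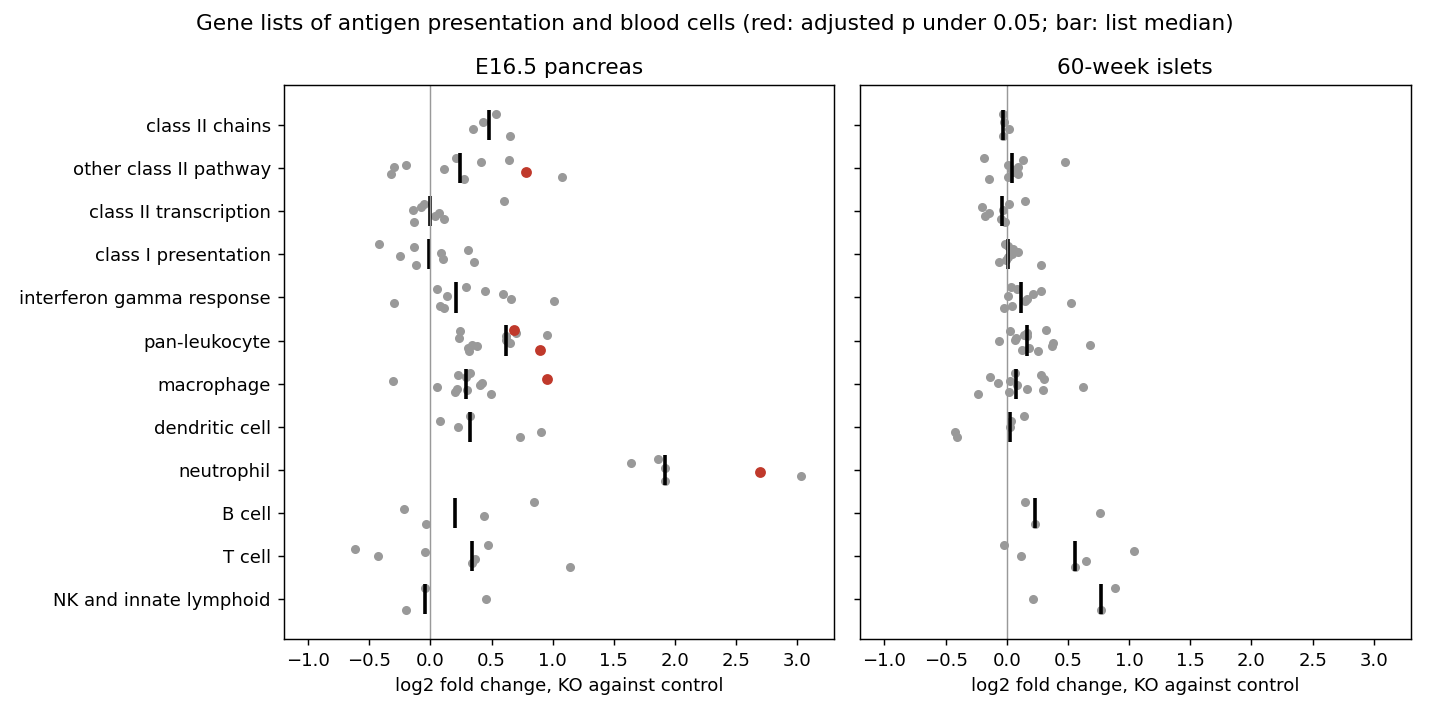
Log2 fold change, KO against control, of each gene tested in 12 lists, at E16.5 (left) and in islets (right). Red points have an edgeR adjusted p under 0.05, grey points do not, and black bars are list medians. At E16.5 the pan-leukocyte median is 0.62 and the neutrophil median 1.92, while in islets no point is red and the class II median is -0.03. No neutrophil gene could be tested in islets, so that row is empty there.

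The fetal pancreas held Cd3e reads with few reads of the other chains of its complex. Cd3e had 110 to 227 reads in controls and 138 to 141 in KO pancreata. Cd3d had 0 to 3 reads, Cd3g 1 to 7 and Cd247 3 to 20 across the same 6 libraries, although all 4 chains belong to the same receptor complex. Cd8a and Cd8b1, the chains of CD8, had 0 reads in all 6. Among the 8 genes Cd3e ranked second in control pancreata by level per kb, at 6.40 ± 1.72 CPM per kb (SD, n = 3), behind Cd74 at 7.80 ± 1.48 CPM per kb (SD, n = 3), with overlapping values. In the 10 islet libraries Cd3e had 0 to 14 reads, Cd3d 0 to 11, Cd3g 3 to 26 and Cd247 10 to 27. Whether the fetal reads belong to Cd3e or to the antisense Gm48719 was not tested.

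Per kb, H2-Aa followed in control pancreata at 3.76 ± 0.663, then Ptprc at 2.29 ± 0.194, H2-Ab1 at 2.24 ± 0.575, H2-Eb1 at 1.87 ± 0.361, Lck at 1.52 ± 0.149 and Cd79a at 0.221 ± 0.249 CPM per kb (SD, n = 3 each). Neighbours in this order overlapped in their values, except that H2-Aa was separate from Ptprc and Lck from Cd79a. Without the correction for length Ptprc, a long transcript, would rank first.

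In islets at 60 weeks, no difference between genotypes was detected in these genes. None of the 7 genes tested passed in edgeR, which called 0.155% of 14219 genes, and none passed with DESeq2, which called 0.59%. At an unadjusted p under 0.05 it held 0 of 7, against 7.18% of all genes. Cd3e was too low to be tested. For none of the 8 genes did the groups separate, against 1.55% of all genes tested.

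Cd74 had 137, 120, 134, 157 and 136 CPM in controls 052, 826, 829, 857 and 858, and 154, 116, 133, 145 and 123 CPM in KO 055, 122, 803, 812 and 845. Both the ranges and the means were close, at 137 ± 13.2 CPM and 134 ± 15.4 CPM (SD, n = 5 each). The log2 change was -0.03 (SE 0.0833, edgeR adjusted p = 0.976). H2-Aa had 73.9, 66.7, 74.8, 79.0 and 76.3 CPM in controls and 77.1, 62.1, 74.6, 80.1 and 70.6 CPM in KO islets, in the same order of animals. Control 826 and KO 122 were the lowest of their groups, as for Cd74. The log2 change of H2-Aa was -0.02 (SE 0.0665, edgeR adjusted p = 0.978).

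H2-Ab1 had 28.4, 27.7, 30.6, 34.5 and 30.3 CPM in controls and 34.3, 23.9, 31.6, 33.9 and 29.7 CPM in KO islets, with a log2 change of 0.02 (SE 0.0937, edgeR adjusted p = 0.992). H2-Eb1 had 61.8, 54.8, 60.6, 72.1 and 58.9 CPM in controls and 66.6, 53.1, 58.3, 66.7 and 56.8 CPM in KO islets, with a log2 change of -0.03 (SE 0.0800, edgeR adjusted p = 0.971). Each of the 4 class II genes was lowest in control 826 among the controls and in KO 122 among the KO islets. These genes had 620 reads or more in every islet library, and their standard errors were smaller than at E16.5.

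Ptprc had 11.4, 9.81, 11.7, 11.4 and 9.78 CPM in control islets and 15.98, 9.75, 10.6, 13.3 and 18.6 CPM in KO islets. KO 845 and KO 055 were the highest and KO 122 the lowest of all 10, so the groups overlapped. The log2 change was 0.33 (SE 0.157), with an unadjusted p of 0.0567 and an edgeR adjusted p of 0.704. Lck had 1.29, 0.764, 1.30, 1.50 and 1.15 CPM in control and 1.58, 0.964, 1.29, 2.33 and 1.68 CPM in KO islets, a log2 change of 0.36 (SE 0.244, edgeR adjusted p = 0.826). Cd3e had 0, 5, 12, 8 and 7 reads in control and 14, 2, 2, 5 and 12 reads in KO islets. Cd79a had 6.08, 4.67, 2.93, 7.11 and 6.97 CPM in control and 4.47, 5.51, 4.51, 5.10 and 6.64 CPM in KO islets. Its lowest and highest values were both in controls, and its log2 change was -0.08 (SE 0.215, edgeR adjusted p = 0.977).

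**Figure D3:**
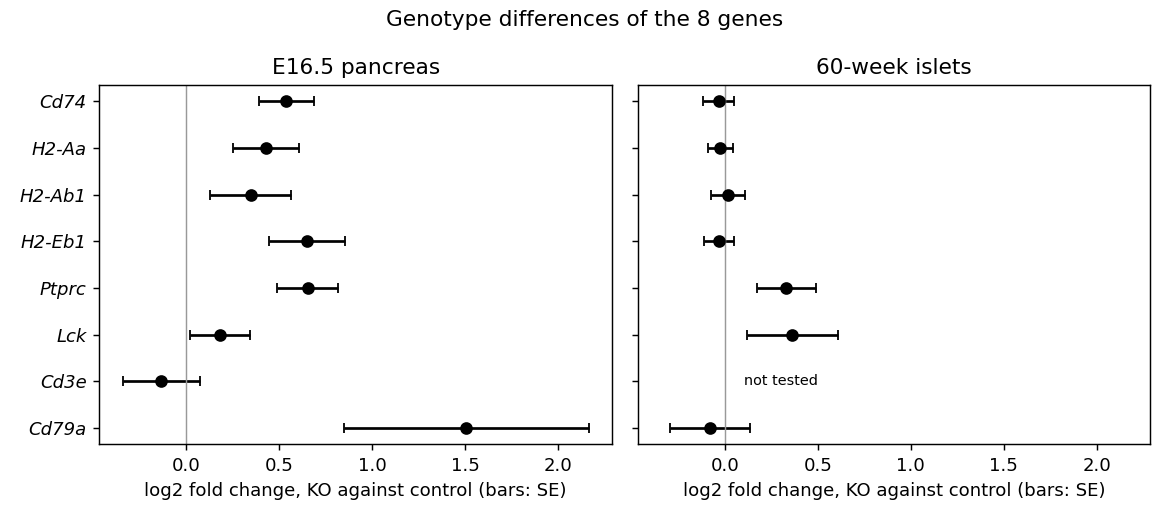
Log2 fold change of the 8 genes, KO against control, in E16.5 pancreata (left) and islets (right) on 1 scale, with bars of 1 SE from edgeR. At E16.5 all but Cd3e lie above 0 and the class II genes between 0.35 and 0.65, while in islets the class II genes lie within 0.03 of 0. None has an adjusted p under 0.05.

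None of 10 other class II pathway genes, 8 class II transcription genes, 9 class I genes and 10 interferon gamma response genes tested passed, with medians of 0.04, -0.04, 0.01 and 0.11. None of 14 pan-leukocyte genes passed, 13 of 14 had a fold change above 0, and the median was 0.17. KO 845 stood apart in lymphocyte genes: the summed level of 13 B cell genes was 21.2 CPM there and that of 15 T cell genes 14.4 CPM, against highest values of 8.04 and 6.62 CPM in control islets. KO 055 also exceeded both, with 8.82 and 8.90 CPM, and KO 812 exceeded the T cell value with 8.82 CPM. The part of these cells in the Ptprc level of KO 845 was not tested.

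Cd79a in islets did not go with other B cell genes. It had 90 to 204 reads in control and 114 to 154 in KO islets, while Cd79b, the chain it pairs with, had 2 to 10 reads in control islets and 6 to 9 in KO islets other than KO 845. KO 845 had 44 reads of Cd79b and 38 of Ms4a1, which encodes CD20, each the highest of the 10 islet libraries. Cd79a had 154 reads in that library, inside the range of the controls. At E16.5 the reverse held, with 28 to 54 reads of Cd79b and 2 to 18 of Cd79a. No exon of another gene overlaps Cd79a in GENCODE M21, and the source of its islet reads was not tested.

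**Figure D4:**
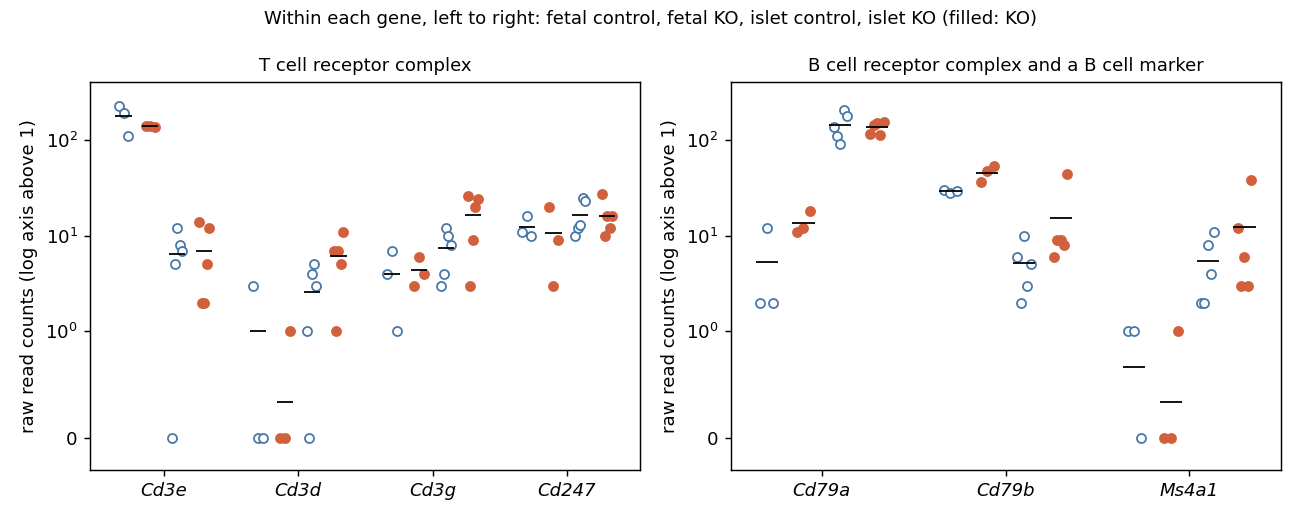
Raw read counts, on an axis that is logarithmic above 1, of Cd3e with the other T cell receptor chains (left) and of Cd79a with Cd79b and the B cell marker Ms4a1 (right). For each gene the 4 groups run from fetal control to islet KO, with filled points for KO and bars for means. Fetal Cd3e lies at 110 to 227 reads while Cd3d stays at 3 or below, and islet Cd79a lies at 90 to 204 reads while Cd79b is at 10 or below in all islets but KO 845.

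The difference between tissues in the response to genotype was tested as an interaction in a model over all 16 libraries. None of the 8 genes passed, against 7.19% of 15823 genes, and 4 had an unadjusted p under 0.05, against 22.1%. Cd74 had an interaction of -0.55 (SE 0.167) and H2-Eb1 one of -0.65 (SE 0.197) on the log2 scale, with edgeR adjusted p of 0.0567 and 0.0561. DESeq2 called both, with adjusted p of 0.0211 and 0.0206, against 7.67% of all genes, as did edgeR with library totals, with an adjusted p of 0.0286 for each, against 5.73%. In edgeR both were also called without fetal control 02 (adjusted p = 0.0365 and 0.0436), without islet control 826 (0.0453 and 0.0482) and without islet KO 055 (0.0356 and 0.0478), and Cd79a without fetal control 08 (0.0407). Without control 02, 261 of 16034 genes were called higher and 254 lower, and without control 826, 507 and 447 of 15790. Without KO 055 the counts were 589 and 503 of 15791, and without control 08 they were 351 and 329 of 16027. No other left-out library gave a call among the 8. For Ptprc the interaction was -0.31 (edgeR adjusted p = 0.543).

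Larger differences for most of the 8 genes lay between control islets and control fetal pancreata, a comparison in which tissue, age, sex and dissection cannot be told apart and 85.9% of all genes were called. All 4 class II genes were higher in islets: 14.9-fold for Cd74 (log2 change 3.90, SE 0.133), 17.3-fold for H2-Aa (4.11, SE 0.122), 13.4-fold for H2-Ab1 (3.74, SE 0.155) and 21.6-fold for H2-Eb1 (4.44, SE 0.144). Their edgeR adjusted p ran from 4.93e-15 to 4.02e-13. Cd79a was 23.1-fold higher (4.53, SE 0.461, edgeR adjusted p = 7.47e-08), a log2 change that was 5.95 without fetal control 08 and 4.05 without fetal control 02. Cd3e fell by 4.95 on the log2 scale (edgeR adjusted p = 1.06e-08) and Lck by 1.43 (edgeR adjusted p = 2.15e-05). Ptprc differed by -0.30 and did not pass (edgeR adjusted p = 0.136). Of the 8 genes 5 were higher, as were 42.4% of all genes, and 2 were lower, as were 43.6%. With libraries scaled to the pan-leukocyte counts Lck was at 0.08 and Ptprc at 1.21, the reverse direction. On that scale the median of all genes was 1.48, so both lay below it.

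All 14 pan-leukocyte, all 12 macrophage and all 7 neutrophil genes tested were lower in control islets than in control pancreata, with medians of -1.55, -1.39 and -6.38 on the log2 scale. Of 11 T cell genes 2 were higher and 6 lower, of 7 B cell genes 1 was higher and 3 lower, and of 3 plasma cell genes 2 were higher and 1 lower. Csf1r, the receptor that macrophages depend on, was 75.3 ± 16.9 CPM (SD, n = 3) in control pancreata and 17.0 ± 1.19 CPM (SD, n = 5) in control islets, each scaled within its own table, while the fold changes come from 1 joint scaling. Per kb the ratio of Cd74 to Ptprc was 2.98 to 4.08 in control pancreata and 57.0 to 69.1 in control islets, and that of Cd74 to Csf1r 0.472 to 0.659 and 29.4 to 34.6. The ratios did not overlap between tissues in either genotype. Ciita was higher in islets, 2.54 ± 0.320 CPM (SD, n = 5) in controls, by 5.26-fold (edgeR adjusted p = 1.16e-07). Itgax, which encodes the integrin CD11c of dendritic cells and some macrophages, was 8.92-fold higher (edgeR adjusted p = 2.49e-09). It is 1 of 7 dendritic cell genes tested, of which 3 were higher and 3 lower.

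The rest of the pathway was divided. Of 12 other class II pathway genes tested 4 were higher in islets, among them H2-DMa at 2.88-fold, and 7 were lower, among them March1 and the costimulatory ligand Cd86. Of 8 class II transcription genes 5 were higher and 3 lower. Of 9 class I genes 8 were higher and none was lower, with a median of 1.91. Of 11 interferon gamma response genes 5 were higher and 5 lower.

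In control islets the order of levels per kb was Cd74 at 97.5 ± 9.36, H2-Aa at 54.9 ± 3.38, H2-Eb1 at 34.1 ± 3.57, H2-Ab1 at 25.4 ± 2.22, Cd79a at 4.20 ± 1.33, Ptprc at 1.55 ± 0.135, Lck at 0.468 ± 0.107 and Cd3e at 0.162 ± 0.101 CPM per kb (SD, n = 5 each). No neighbours in this order overlapped. The ratio of H2-Aa to H2-Ab1 per kb, the alpha and beta chains of 1 molecule, lay between 1.99 and 2.30 in all 10 islet libraries and between 1.48 and 2.08 in the 6 pancreata.

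Across the 10 islet libraries the class II genes varied together. With Cd74, the Pearson correlation of log2(CPM + 0.5) was 0.892 for H2-Aa, 0.879 for H2-Ab1 and 0.968 for H2-Eb1, and Spearman's rho was 0.891, 0.83 and 0.976. Permutation p, two-sided and adjusted over 10 relations chosen with the values known, were 0.0012, 0.0012 and 0.0002 for r and 0.0059, 0.0109 and 0.0002 for rho. The unadjusted p of r were 0.00034, 0.00046 and 2e-05, the last being the smallest that 100000 permutations can give. Without control 857 and KO 122, the libraries farthest from the median of Cd74, r was 0.872, 0.806 and 0.946. With group means subtracted r was 0.891, 0.891 and 0.968. The class I light chain B2m also varied with Cd74 (r = 0.931, rho = 0.855, permutation p = 0.00048 and 0.0027, adjusted 0.0012 and 0.009, and r = 0.942 without those 2 libraries).

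Other relations with Cd74 did not pass, though 10 libraries leave wide room. For Ptprc r was 0.245 and rho 0.455 (permutation p = 0.501 and 0.192, adjusted 0.626 and 0.24), for Cd79a 0.0749 and 0.164 (0.845 and 0.652, adjusted 0.845 and 0.725) and for Csf1r 0.123 and 0.0182 (0.732 and 0.974, adjusted 0.813 and 0.974). For Lck r was 0.595 and rho 0.6 (permutation p = 0.0675 and 0.0755, adjusted 0.113 and 0.151), for Itgax 0.622 and 0.539 (0.0522 and 0.113, adjusted 0.104 and 0.188) and for Ciita 0.413 and 0.467 (0.235 and 0.18, adjusted 0.335 and 0.24). With group means subtracted, for which no p was computed, r was 0.727 for Lck, 0.631 for Itgax and 0.489 for Ciita. It was 0.358 for Ptprc, 0.156 for Csf1r and 0.0699 for Cd79a. All genes of a library share its scaling factor, and the labels name no batch within which to repeat these values.

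**Figure D5:**
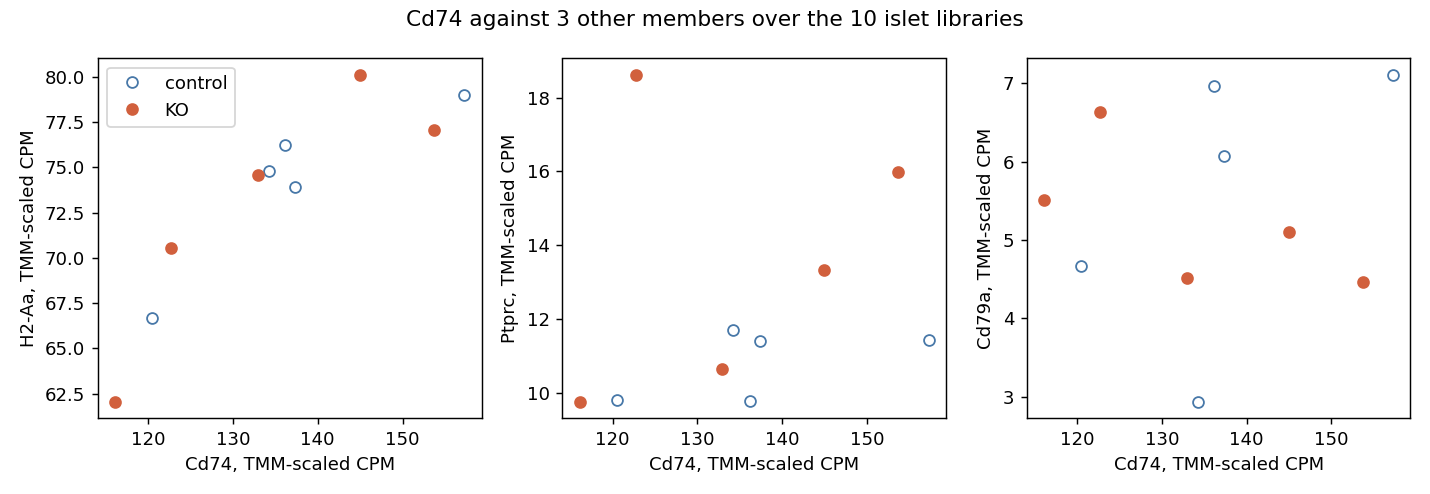
CPM of H2-Aa, Ptprc and Cd79a (vertical axes) against CPM of Cd74 (horizontal axes) in the 10 islet libraries, with open points for controls and filled points for KO. The axes do not start at 0. H2-Aa follows Cd74 over its range of 116 to 157 CPM (r = 0.892 on the log scale), while for Ptprc and Cd79a r is 0.245 and 0.0749.

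Among 12520 genes with a mean of at least 1 CPM, those whose pattern over the 10 islet libraries was most like the mean of the 4 class II genes, by Pearson r after subtracting group means, were Ipp (0.961), B2m (0.944), Tenm4 (0.94), Rtp4 (0.939), Mtmr9 (0.938) and Spsb1 (0.933). Lck ranked number 51 on this measure, Ptprc number 1602 and Cd79a number 6004. Of the class II pathway list, Ctss ranked number 38 (0.828), Cd86 number 401 and H2-DMa number 4944 (0.126). Itgax ranked number 201, Ciita number 675 and Csf1r number 4858. The 6 genes most like Ptprc were Il2rg (0.95), the shared chain of several cytokine receptors, Mlkl (0.945), Ybey (0.923), D17H6S56E-5 (0.914), Cytip (0.905) and Stmn1 (0.894). Over the 6 pancreata the class II genes were most like Mfng (0.995), Ctnna1 (0.991), Trim21 (0.991), Hspb7 (0.99), Ehmt2 (0.99) and Baiap2 (0.989), and Ptprc most like Fgf18 (0.999), Cpa1 (0.998), Fhit (0.997), Dkk3 (0.996), Pnliprp2 (0.996) and Susd6 (0.995). These are the highest of 12520 to 13616 values over few libraries. With group means kept, 2 of each 6 stayed among the first 6 in islets, and 1 for class II and 0 for Ptprc in pancreata. With Spearman's rho 2 of each 6 stayed in islets, while over 6 pancreata rho reached 1 in ties and ranks no genes.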

How the data were processed

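Polyadenylated mRNA was sequenced from whole pancreata and islets. The authors deposited raw read counts per gene, with coordinates and lengths in kb, in 1 table per tissue. The submitters' processing notes list HTSeq 0.11.1, STAR 2.6.0, Trimmomatic and edgeR, with mm10 as the build. No source used here names the annotation version or the strand setting.

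Counts were fitted within each tissue with edgeR 4.0.16 (quasi-likelihood F test, TMM scaling, filterByExpr, R 4.3.3), unpaired, with Benjamini-Hochberg adjustment over all genes tested and a threshold of 0.05. A model over all 16 libraries gave the interaction and the contrast of tissues. Fold changes are on the log2 scale, and SEs were computed from the fold change and F. Depth was 14866194 to 22699934 reads in pancreata and 22595400 to 32385042 in islets. Replicate libraries differed by more than sampling noise in every group (lowest chi-square per degree of freedom 5.09). The test was checked on simulated data.

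The 8 genes and all lists were chosen with earlier results of these data known. Named genes were these 8, Tff2, up to 3 called genes of a list or else its 2 most abundant, and the 6 genes most like the class II genes or Ptprc. Ciita, H2-DMa, Ctss, Itgax, Csf1r, Cd86, Ddx3y and the receptor partner genes were added once values were known. So were the relations with Cd74 and the motif spellings. Alternatives covered scaling, filters, DESeq2 1.42.0, limma-voom (limma 3.58.1), robust edgeR, the samples fitted and each library left out.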

Additional observations from a re-analysis of the deposited data

How the results depend on the processing

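No paired analysis was possible because no animal number was shared between groups. Scaling to pan-leukocyte counts was chosen after seeing the data.

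For KO against control at E16.5, the 959 genes called became 9715 with pan-epithelial scaling, 1754 with pan-leukocyte scaling, 1548 with DESeq2 and 2070 in the model over all 16 libraries, and 0 to 1035 with 1 library left out. Of the 8 genes none was called, but 7 were with pan-epithelial scaling, 2 with library totals, 2 with DESeq2, 2 in the model over 16 libraries, 1 with no filter and 1 with limma-voom, and 0 to 1 with 1 library left out. Directions reversed for Cd3e with pan-epithelial scaling (0.28) and for H2-Aa (-0.0887), H2-Ab1 (-0.12) and Lck (-0.31) with pan-leukocyte scaling. The medians of all genes were 0.40 and -0.51 on those scales. With library totals the 958 genes called split into 779 higher and 179 lower, against 560 and 399, and with pan-epithelial and pan-leukocyte scaling into 9671 and 44 and into 314 and 1440.

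In islets DESeq2 called 111 genes against 22, and leaving out 1 library gave 5 to 26, with 0 of the 8 genes called each time. H2-Ab1 reversed with pan-leukocyte scaling (-0.12) and limma-voom (-0.0013). The median of all genes was -0.13 with pan-leukocyte scaling. With 1 library left out, log2 changes ran from -0.0862 to 0.0219 for Cd74, -0.0608 to 0.0276 for H2-Aa, -0.0269 to 0.0942 for H2-Ab1, -0.0718 to 0.0301 for H2-Eb1 and -0.25 to 0.0271 for Cd79a.

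For the interaction, 2 of the 8 genes were called with library totals and 2 with DESeq2, and 0 to 2 with 1 library left out, when 515 to 1186 genes were called in all. Pan-leukocyte scaling called 481 and reversed H2-Ab1 (0.0101) and Ptprc (0.0548), with a median of all genes of 0.376. Cd3e ran from -0.10 to 0.63 with 1 library left out.

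Between control islets and control pancreata, leaving out 1 library gave 13278 to 13734 calls and 7 of the 8 genes each time. Pan-leukocyte scaling reversed Lck (0.0787) and Ptprc (1.21), and library totals called Ptprc (-0.54, edgeR adjusted p = 0.00837). The median of all genes was 1.48 with pan-leukocyte scaling and -0.246 with library totals. The causes were not tested. Low read counts limit Cd79a at E16.5 and Cd3e in islets, and leaving out 1 library leaves 2 in a fetal group.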
